A study of Mus musculus with 12 samples.

Results

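AP-1 and the immediate early factors are transcription factors that cells switch on or activate within a short time of a stimulus. AP-1 is a dimer of a Jun protein with a Fos, Jun or ATF protein, joined through a basic leucine zipper that also contacts DNA. Stretch, altered shear stress and injury of the vessel wall act on these factors through the MAP kinases and serum response factor, and their transcripts usually come and go quickly. The zinc finger factor Egr1 and the growth regulator Myc, which binds DNA with its partner Max, belong to the same early class. The members were all probes that the platform annotation assigns to Fos, Fosb, Fosl1, Fosl2, Jun, Junb, Jund, Atf3, Egr1 or Myc, whatever their values. That gave 13 probes of 9 of the 10 genes, out of 45281 probes on the array. Fosl1 had no probe in the annotation used and was not analysed here.

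The RNA came from mouse carotid arteries explanted 1 day after the left common carotid had been partially ligated, a procedure that disturbs flow in that vessel, with the right carotid as the untouched counterpart. The 4 groups were the ligated left carotid of fibulin-5 knockout mice (KO LCA), their right carotid (KO RCA), the ligated left carotid of wild-type mice (WT LCA) and their right carotid (WT RCA), with 3 arrays in each group and C57Bl/6J given as the strain on all 12. Fibulin-5 is an extracellular protein needed for the assembly of elastic fibres. The labels give neither the ages of the mice nor how the gene was inactivated, and they call the allele both a knockout and a knockdown. They also do not say whether the 3 replicates are separate mice or pools, so each p-value reflects only array-to-array spread, which may be technical.

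The deposited values are intensities on a linear scale whose overall distribution is almost the same on every array. Most probes lie near a floor: the median intensity was 93.6, the lowest value 72.4 and the 95th percentile 197. As a guide to what an unexpressed gene reads, the 95th percentile of 1501 probes for olfactory and vomeronasal receptors was taken on each array, and it lay between 95.8 and 126. A value above this receptor level is called above background here. The Fbln5 probe read 80.6 to 97.4 and was above background on 0 of 12 arrays, in wild-type arteries too, so it could not check the genotype labels. The third WT LCA array stood apart, with the highest receptor level (126), the smallest share of named probes above it (11.7%, against up to 43.5% on the third KO LCA array) and the lowest median correlation with the other arrays (0.63). Of 12 endothelial markers, 8 were above background on all 12 arrays, among them Pecam1 (753 to 3593) and Cdh5 (153 to 266). Tek was above it on 11 arrays, Eng and Nos3 on 10 each and Kdr on 1. Of 10 smooth muscle markers, Acta2 (up to 1206), Mylk (up to 384) and Tpm2 (up to 293) were above background on 11 arrays each. Cald1 (up to 849) was above it on 10 arrays, Smtn on 8, Myh11 on 7 and Tagln on 5. Cnn1, Des and Lmod1 were above it on 1 array each.

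Most members sat close to the floor. The first Fosl2 probe was the only one of 13 above background on all 12 arrays. The second Junb probe was above it on none and failed the filter on low values, which asked for an intensity of at least the array median on 3 or more arrays. The other 12 probes were tested. The number of member probes above background was 10, 8 and 10 of 13 on the KO LCA arrays, 6, 10 and 7 on the KO RCA arrays, 7, 5 and 3 on the WT LCA arrays, and 6, 5 and 6 on the WT RCA arrays. Of all named probes, 34.0, 27.2 and 43.5% were above background on KO LCA and 26.8, 33.9 and 27.5% on KO RCA. The shares were 35.2, 27.5 and 11.7% on WT LCA and 32.6, 41.1 and 22.2% on WT RCA. The member counts were not adjusted for these shares. In each group below, the values are given in the order of replicates 1, 2 and 3. Since these are bulk samples, fewer cells of a type and less RNA per cell cannot be told apart in any of these values.

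No member passed an adjusted p of 0.05 in any comparison. The ligated KO artery was compared with its right counterpart, the ligated WT artery with its right counterpart, KO with WT on either side, and the ligation difference in KO with that in WT. Of the 12 tested probes, 0 passed in each of these 5 comparisons by limma with Benjamini-Hochberg adjustment over 25796 probes. Among all tested probes the share that passed was 0.0% for KO LCA against KO RCA, 0.0% for WT LCA against WT RCA, 0.0% for KO RCA against WT RCA, 0.0426% for KO LCA against WT LCA and 0.0% for the difference of the ligation differences. The absence of member calls therefore equals what almost all of the array showed. At an unadjusted p under 0.05, the counts were 0 of 12 members for KO LCA against KO RCA (7.54% of all probes), 0 of 12 for WT LCA against WT RCA (6.84%), 4 of 12 for KO RCA against WT RCA (4.32%), 1 of 12 for KO LCA against WT LCA (6.46%) and 0 of 12 for the difference of the ligation differences (3.62%). All 5 of those unadjusted differences had the higher value in KO. The comparisons share arrays (KO RCA, for example, serves both the KO ligation comparison and the KO against WT comparison on the right side), so their values are given side by side.

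**Figure D1:**
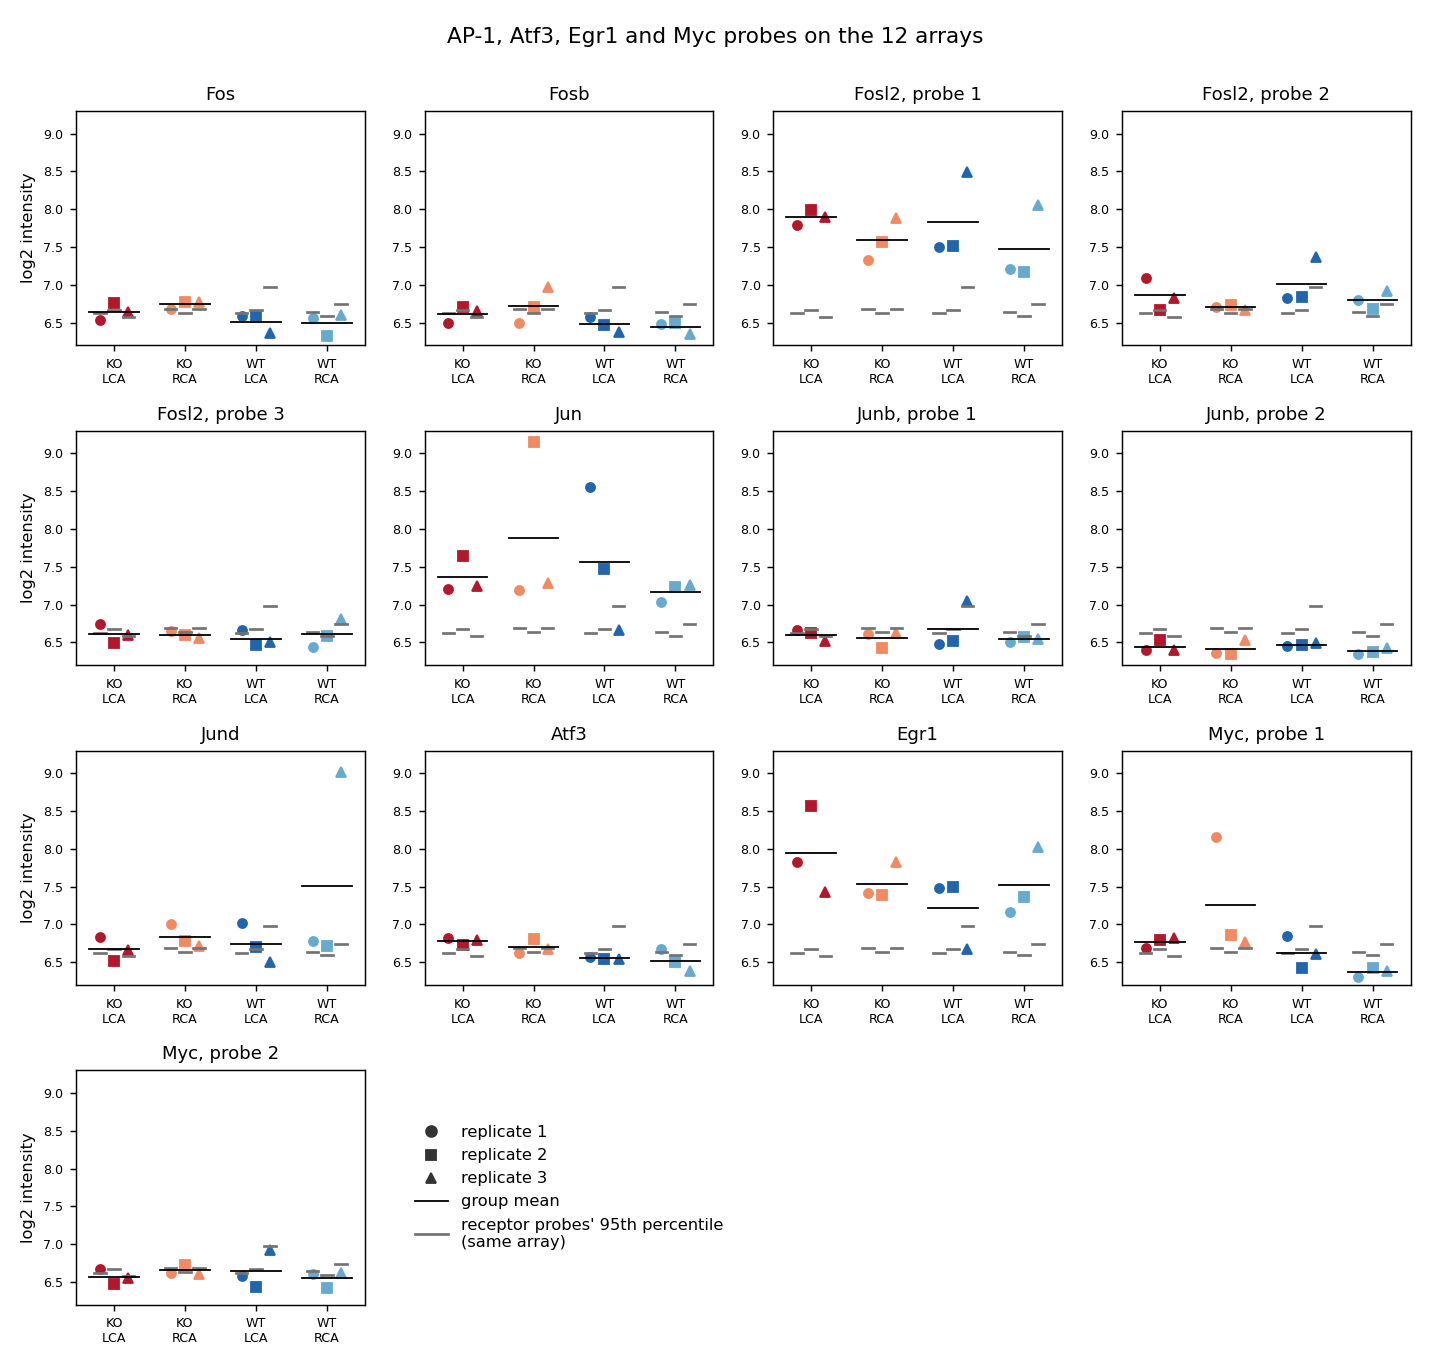
log2 intensity of the 13 member probes on each of the 12 arrays, 1 panel per probe, grouped from left to right as KO LCA, KO RCA, WT LCA and WT RCA. Circles, squares and triangles are replicates 1, 2 and 3, the black line is the group mean of log2 intensity, and the grey tick is the receptor level of the same array. Most probes lie near the grey ticks, whereas the first Fosl2 probe is above them on all 12 arrays and Jun and Egr1 on all but the third WT LCA array.

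Fos, the prototype of the proteins that pair with Jun, is encoded on chromosome 12 (chr12:85473890-85477274, GRCm38) and had 1 probe (ILMN_2750515). Fosb, its close relative, lies on chromosome 7 (chr7:19302696-19310118, minus strand, probe ILMN_2778279). Atf3, a stress-induced member of the CREB/ATF group that pairs with Jun proteins, lies on chromosome 1 (chr1:191170296-191183333, minus strand, probe ILMN_2619408). These 3 genes, with Myc, had an unadjusted p under 0.05 between KO RCA and WT RCA, and Jun had arrays that stood far apart, so a stretch of 80 bases from the promoter of each of these 4 genes is shown where the promoter table held an entry, which leaves out Myc. The sequences are from RefSeq (GRCm38.p6), 5′ to 3′ on the strand of the gene, and the capitals mark a match to a motif that was chosen after the letters were seen.
Fos promoter, chr12:85473780-85473859, plus strand, 110 to 31 bases before the start: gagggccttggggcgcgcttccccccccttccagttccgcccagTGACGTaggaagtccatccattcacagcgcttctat
Fosb promoter, chr7:19310056-19310135, minus strand, 90 to 11 bases before the start: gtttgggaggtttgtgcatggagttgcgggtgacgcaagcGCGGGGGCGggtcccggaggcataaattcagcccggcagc
Atf3 promoter, chr1:191183334-191183413, minus strand, 80 bases to 1 base before the start: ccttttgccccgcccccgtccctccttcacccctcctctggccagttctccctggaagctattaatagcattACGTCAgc
Jun promoter, chr4:95052233-95052312, minus strand, 90 to 11 bases before the start: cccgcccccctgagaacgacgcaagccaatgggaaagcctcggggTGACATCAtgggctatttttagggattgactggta
The capitals mark the CRE core TGACGT in Fos and the same core on the other strand, ACGTCA, in Atf3. In Fosb they mark the EGR-type motif GCGGGGGCG, and in Jun the CRE-like AP-1 motif TGACATCA.

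These motifs were searched on both strands in windows of 250 bases before to 50 after the start of 32851 promoters, and of 7 member promoters. Chromosome 18, where Egr1 lies, was left out of the member windows but not of the 32851, so Egr1 was not searched. TGACGT was in 7.51% of all promoters, and began 66 bases before the start in Fos and 8 before it in Atf3. GCGGGGGCG was in 2.91% of all promoters, and began 50 bases before the start in Fosb and 79 before it in Fosl2. TGACATCA was in 3.62% of all promoters and lay 45 bases before the start in Jun. The classical AP-1 site TGACTCA, in 5.2% of all promoters, was in 0 of the 7 member windows, as were the full CRE palindrome TGACGTCA, which contains TGACGT (1.79%), the MYC E-box CACGTG (7.15%), the EGR motif GCGTGGGCG (0.612%) and the CArG box bound by serum response factor (1.63%). These matches describe letters in these windows only.

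Fos read 92.4, 109 and 99.5 in KO LCA, 103, 109 and 110.2 in KO RCA, 96.6, 94.7 and 82.6 in WT LCA, and 94.4, 80.7 and 97.3 in WT RCA. It was above background on 2 arrays of each KO group and on 0 of the 6 WT arrays. All 3 KO RCA values lay above all 3 WT RCA values. The difference was 0.25 ± 0.09 on the log2 scale (SE; 95% confidence interval 0.04 to 0.45), with an unadjusted p of 0.0242 and an adjusted p of 1 by limma. Without the second WT RCA array it was 0.16. No WT RCA array exceeded the receptor level. With each WT RCA value raised to the receptor level of its array, KO RCA was on average 1.06-fold higher. This figure allows for the floor only and not for the spread between arrays. Between ligated and right carotid, Fos differed by -0.10 ± 0.09 in KO and by 0.01 ± 0.09 in WT, with overlapping groups.

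Fosb read 90.8, 104 and 100.2 in KO LCA, 89.8, 105 and 126 in KO RCA, 95.5, 88.6 and 83.2 in WT LCA, and 89.1, 90.2 and 81.5 in WT RCA. Like Fos, it was above background on 2 arrays of each KO group and on 0 of 6 WT arrays. KO RCA minus WT RCA was 0.28 ± 0.11 (limma, unadjusted p = 0.0332, adjusted p = 1). With WT RCA raised to the receptor level it was 1.05-fold, without allowance for the spread between arrays. The groups overlapped by the first KO RCA array, and the difference was 0.16 without the third KO RCA array. KO LCA minus WT LCA was 0.14 ± 0.11 for Fosb and 0.13 ± 0.09 for Fos. The ligation differences of Fosb were -0.10 ± 0.11 in KO and 0.03 ± 0.11 in WT. As a description over 12 arrays that share groups and a common floor, the Fos and Fosb probes had a Pearson r of 0.70 and a Spearman rho of 0.64.

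Atf3 was the only member whose KO LCA and WT LCA arrays separated. It read 113, 106 and 111 in KO LCA, 98.5, 112 and 103 in KO RCA, 95.3, 93.5 and 93.4 in WT LCA, and 102, 90.3 and 83.4 in WT RCA. It was above background on 3 of 3 KO LCA arrays and on 0 of 3 WT LCA arrays. KO LCA minus WT LCA was 0.23 ± 0.08 (limma, unadjusted p = 0.0157, adjusted p = 0.613), and it stayed between 0.20 and 0.25 when any single array was left out. With WT LCA raised to the receptor level of its arrays this difference was 1.01-fold, again without allowance for the spread between arrays. In the RCA the KO minus WT difference was 0.19 ± 0.08 (limma, unadjusted p = 0.0372, adjusted p = 1), with overlapping groups. Ligation differences were 0.08 ± 0.08 in KO and 0.04 ± 0.08 in WT. Non-overlap in this direction was met by 1 of 12 members for KO LCA against WT LCA and by 7.61% of all tested probes.

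Fosl2 encodes Fra-2, a Fos protein without the strong activation region of Fos, and lies on chromosome 5 (chr5:32136472-32157840). It had 3 probes, which are given separately because levels cannot be set against each other between probes. The first (ILMN_1252481) read 221, 255 and 239 in KO LCA, 161, 190.0 and 237 in KO RCA, 181, 184 and 361 in WT LCA, and 148, 144 and 264 in WT RCA. The third WT LCA array held its highest value. KO LCA minus KO RCA was 0.30 ± 0.30 (limma, adjusted p = 0.856) and WT LCA minus WT RCA was 0.36 ± 0.30 (limma, adjusted p = 0.727). Both differences were above 0 without passing. The WT one lay between 0.04 (without the third WT LCA array) and 0.65 when 1 array was left out. KO minus WT was 0.12 ± 0.30 in the RCA and 0.05 ± 0.30 in the LCA.

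The other Fosl2 probes were dimmer. The second (ILMN_2718801) averaged 117 ± 17.5 in KO LCA, 104 ± 2.42 in KO RCA, 131 ± 29.9 in WT LCA and 112 ± 9.21 in WT RCA (SD, n = 3 each), and was above background on all arrays but the third of KO RCA. Its ligation differences were 0.16 ± 0.15 in KO, or 0.04 without the first KO LCA array, and 0.21 ± 0.15 in WT, or 0.03 without the third WT LCA array. The third (ILMN_2768924) averaged 98.3 ± 9.12 in KO LCA, 97.2 ± 3.09 in KO RCA, 93.7 ± 6.36 in WT LCA and 98.5 ± 12.8 in WT RCA (SD, n = 3 each) and was above background on 4 arrays in all. Its ligation differences were 0.01 ± 0.10 in KO and -0.07 ± 0.10 in WT. The first 2 probes thus shared a sign in both ligation comparisons. These values rested largely on single arrays, apart from the KO difference of the first probe (0.16 to 0.44 when 1 array was left out). The third probe, mostly at the floor, had the other sign in WT.

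**Figure D2:**
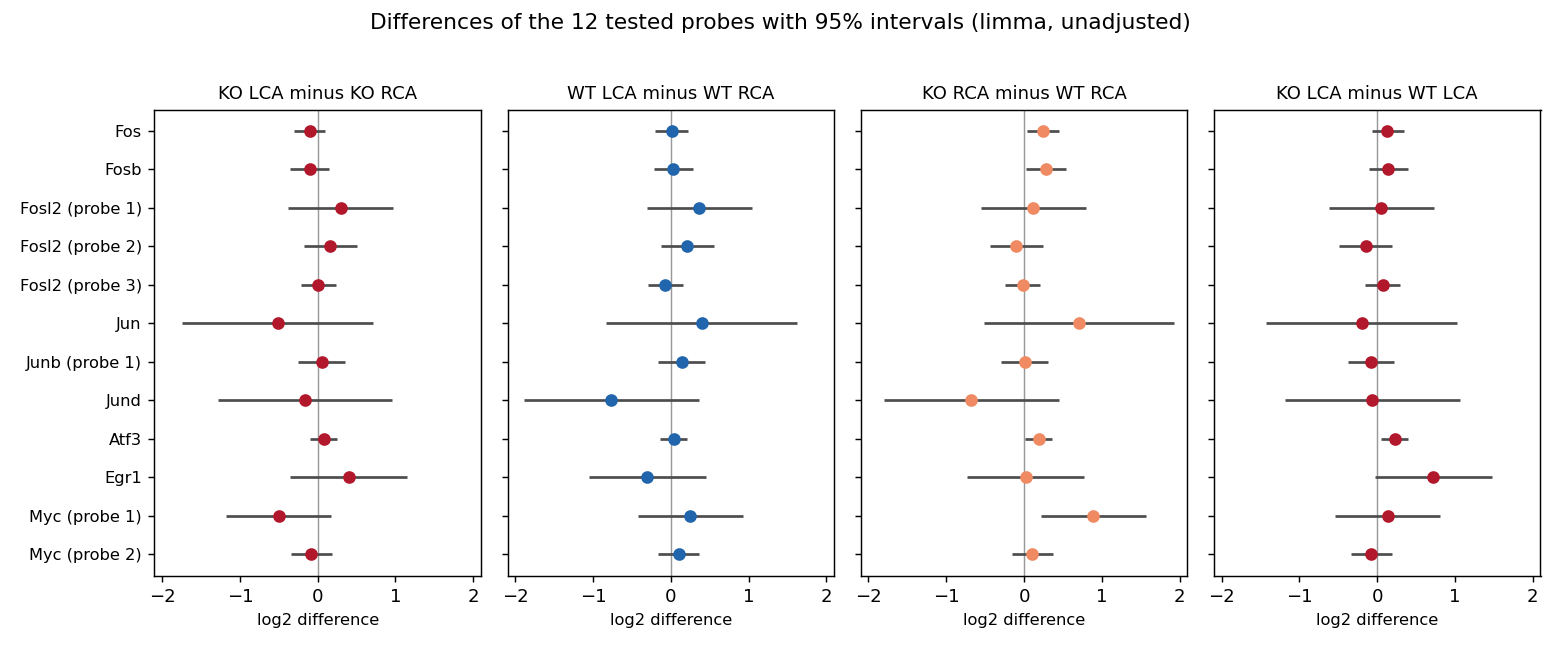
Differences on the log2 scale (horizontal axis) of the 12 tested member probes in 4 comparisons, with unadjusted 95% confidence intervals from limma; positive values are higher in the group named first. The intervals of Fos, Fosb, Atf3 and the first Myc probe lie above 0 for KO RCA minus WT RCA, no probe passed after adjustment, and the widest intervals belong to Jun and Jund.

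Jun, the core AP-1 subunit, able to pair with itself as well as with Fos proteins, lies on chromosome 4 (chr4:95049036-95052222, minus strand, probe ILMN_2646625). It read 148, 199 and 152 in KO LCA, 147, 569 and 156 in KO RCA, 378, 178 and 102 in WT LCA, and 131, 149.9 and 153 in WT RCA. The second KO RCA array and the first WT LCA array were far above the others, and 10 of 12 values lay between 102 and 199. Of the following 4 differences, 3 turned sign when 1 of these arrays was left out. KO LCA minus KO RCA was -0.51 ± 0.55 (limma, adjusted p = 0.864) and 0.12 without the second KO RCA array. WT LCA minus WT RCA was 0.40 ± 0.55 (limma, adjusted p = 0.838) and -0.10 without the first WT LCA array. KO RCA minus WT RCA was 0.71 ± 0.55, and 0.07 without the second KO RCA array. KO LCA minus WT LCA was -0.20 ± 0.55, and 0.29 without the first WT LCA array.

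Junb, an inducible Jun protein that restrains Jun at some genes, lies on chromosome 8 (chr8:84976909-84978748, minus strand). Its first probe (ILMN_1220034) averaged 97.2 ± 4.94 in KO LCA, 93.9 ± 6.73 in KO RCA, 104 ± 24.3 in WT LCA and 93.2 ± 2.06 in WT RCA (SD, n = 3 each). It was above background on the first KO LCA array (102) and the third WT LCA array (132) only. Its second probe (ILMN_1254833) lay between 81.7 and 92.5 on all 12 arrays. For that probe all 3 WT LCA values (87.5, 88.4 and 89.8) exceeded all 3 WT RCA values (81.8, 82.5 and 86.2), but both groups were at background and no fold is given. Junb was therefore near or below the detection limit of both probes on most arrays.

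Jund, the Jun protein most widely present in resting cells, lies on chromosome 8 (chr8:70697739-70700616, probe ILMN_2682788). It read 114, 92.0 and 101 in KO LCA, 128, 109.5 and 105 in KO RCA, 130.1, 104 and 90.4 in WT LCA, and 110.2, 105 and 517 in WT RCA. One value, on the third WT RCA array, was 3.98 times the next highest, and the other 11 lay between 90.4 and 130.1. WT LCA minus WT RCA was -0.77 ± 0.50 (limma, unadjusted p = 0.159, adjusted p = 0.699), and -0.01 without that array. KO RCA minus WT RCA was -0.68 ± 0.50, and 0.08 without it. KO LCA minus KO RCA was -0.16 ± 0.50 and KO LCA minus WT LCA was -0.07 ± 0.50.

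Egr1, a zinc finger factor induced by injury and by changes of shear stress in arteries, lies on chromosome 18 (chr18:34861207-34864956, probe ILMN_2662926). It read 227, 379.7 and 172 in KO LCA, 170.1, 168 and 227 in KO RCA, 178, 182 and 102 in WT LCA, and 144, 165 and 259 in WT RCA. All but the third WT LCA value were above background. The second KO LCA array was the highest, and every pair of groups overlapped. KO LCA minus WT LCA was 0.72 ± 0.34 (95% confidence interval -0.03 to 1.47; limma, unadjusted p = 0.0573, adjusted p = 0.781). It was 0.41 without the second KO LCA array and 0.45 without the third WT LCA array, so each end of the comparison rested partly on 1 array.

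The ligation differences of Egr1 had opposite signs in the 2 genotypes. KO LCA minus KO RCA was 0.40 ± 0.34 (95% confidence interval -0.35 to 1.15; limma, adjusted p = 0.805), and 0.09 without the second KO LCA array. WT LCA minus WT RCA was -0.30 ± 0.34 (limma, adjusted p = 0.794), and -0.03 without the third WT LCA array or -0.05 without the third WT RCA array. The difference between these differences was 0.70 ± 0.47 (limma, unadjusted p = 0.173, adjusted p = 0.919), and lay between 0.38 (without the second KO LCA array) and 0.95 when 1 array was left out. KO RCA and WT RCA differed by 0.02 ± 0.34.

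Myc, which drives growth and ribosome production with its partner Max, lies on chromosome 15 (chr15:61985341-61990361) and had 2 probes. The first (ILMN_1231123) read 103, 110.3 and 113 in KO LCA, 286, 116 and 109 in KO RCA, 115, 85.9 and 97.4 in WT LCA, and 79.5, 85.5 and 83.7 in WT RCA. It was above background on all 6 KO arrays, on 1 of 3 WT LCA arrays and on 0 of 3 WT RCA arrays. KO RCA and WT RCA did not overlap. Their difference was 0.89 ± 0.30 (95% confidence interval 0.22 to 1.57; limma, unadjusted p = 0.0148, adjusted p = 1), the largest of the 12 members in this comparison. With WT RCA raised to the receptor level the difference of means was 1.52-fold, which makes no allowance for the spread between arrays. Without the first KO RCA array the difference was 0.44.

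The remaining Myc comparisons were smaller. KO LCA minus KO RCA was -0.50 ± 0.30 (limma, unadjusted p = 0.129, adjusted p = 0.725), and -0.05 without the first KO RCA array. WT LCA minus WT RCA was 0.25 ± 0.30 (limma, adjusted p = 0.806). All 3 WT LCA values exceeded all 3 WT RCA values, and since WT RCA was at background no fold is given. This was 1 of 12 members with non-overlapping groups in that direction, against 4.4% of all tested probes. KO LCA minus WT LCA was 0.14 ± 0.30. The second probe (ILMN_2623526) did not share the pattern: it averaged 95.3 ± 6.43 in KO LCA, 101 ± 4.86 in KO RCA, 101 ± 18.4 in WT LCA and 93.9 ± 6.95 in WT RCA (SD, n = 3 each). Its KO RCA minus WT RCA difference was 0.10 ± 0.12.

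For KO RCA against WT RCA, 9 of 12 differences were above 0 with a median of 0.11, against a median of 0.0 over all tested probes. The 4 probes with an unadjusted p under 0.05 (Fos, Fosb, Atf3 and the first Myc probe) were all higher in KO, where 2.4% of all tested probes were (1.93% were lower). Non-overlapping groups with KO RCA higher were found for 2 of 12 (Fos and Myc), against 6.25% of all tested probes. For KO LCA against WT LCA, 7 of 12 were above 0, with a median of 0.06. For the ligation itself, 6 of 12 were above 0 in KO (median -0.04) and 9 of 12 in WT (median 0.07), and 0 of 12 had non-overlapping groups in KO, where 20.1% of all tested probes did. The ligation difference in KO exceeded that in WT for 4 of 12 (median -0.08). No ligation difference of a tested member reached an unadjusted p of 0.05 in either genotype at this time.

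Summed markers of other cell types also differed between these groups, some of them with most markers at background. The summed intensity of 10 smooth muscle markers was 2353 to 3343 in KO LCA, 1562 to 2283 in KO RCA, 931 to 1781 in WT LCA and 1146 to 1297 in WT RCA, so it was higher in every KO RCA array than in any WT RCA array. The sum of 7 erythrocyte and platelet markers was 1988 to 3415 in KO LCA, 2545 to 6066 in KO RCA, 1754 to 2613 in WT LCA and 1091 to 2376 in WT RCA, again without overlap between KO RCA and WT RCA. Of these 7, Gp9 (up to 429), Hba-a1 (up to 1830.1) and Hbb-bt (up to 3101) were above background on all 12 arrays. Alas2 was above it on 6 arrays, Pf4 on 4, Slc4a1 on 3 and Ppbp on 1. For 12 endothelial markers the sum was 3393 to 6033 in KO LCA, 4028 to 5153 in KO RCA, 3631 to 4263 in WT LCA and 4338 to 5345 in WT RCA, with overlap on the right side. The sum of 7 neutrophil markers reached 881 in KO LCA, 1243 in KO RCA, 1696 in WT LCA and 871 in WT RCA. S100a9 was above background on 11 arrays, and S100a8 and Cxcr2 on 7 each. Camp, Csf3r and Ngp were above it on 2 arrays each and Retnlg on 1. Of 6 T cell markers, Cd8a was above background on 9 arrays (up to 149.9), Cd2 on 6 and Cd3d on 4, and Cd3e and Cd3g on 0. Of 3 B cell markers, Ms4a1 was above it on 2 arrays and Cd79b and Pax5 on 0. The T cell sum was 526 to 577 in KO RCA and 590 to 639 in WT RCA. The sum of 6 nerve markers was 558 to 568 in KO RCA and 588 to 614 in WT RCA. Of these 6, Pmp22 was above background on 8 arrays, Mbp on 1, and Dbh, S100b, Sox10 and Th on 0. On the left side the sum of 10 fibroblast markers was 1658 to 2332 in KO LCA and 1065 to 1508 in WT LCA. That of 7 adipocyte markers was 976 to 1280 in KO LCA and 672 to 837 in WT LCA. Of these 7, Fabp4 was above background on 11 arrays and Pck1 on 6. Adipoq and Cidec were above it on 2 arrays each, and Lep, Plin1 and Retn on 0. The smooth muscle sum did not overlap between KO LCA and WT LCA either. The part of these cell types in the KO against WT values of Fos, Fosb, Atf3 and Myc was not tested.

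Single arrays shaped several members. For 3 of the 12 tested probes, the highest array exceeded the second highest by at least 1.5 times: Jund on the third WT RCA array (3.98 times), Myc on the first KO RCA array (2.45 times) and Jun on the second KO RCA array (1.51 times). Among all 25796 tested probes 3696, or 14.3%, had such an array, so the trait was a common one. The third WT RCA array was such an array for 1.33% of the probes, the first KO RCA array for 0.787% and the second KO RCA array for 1.11%, while the third WT LCA array was it for 2.93%, the most of any. The same WT LCA array held the highest value of 4 member probes (2 of Fosl2, Junb and the second of Myc) and the lowest of 3 (Jun, Jund and Egr1).

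**Figure D3:**
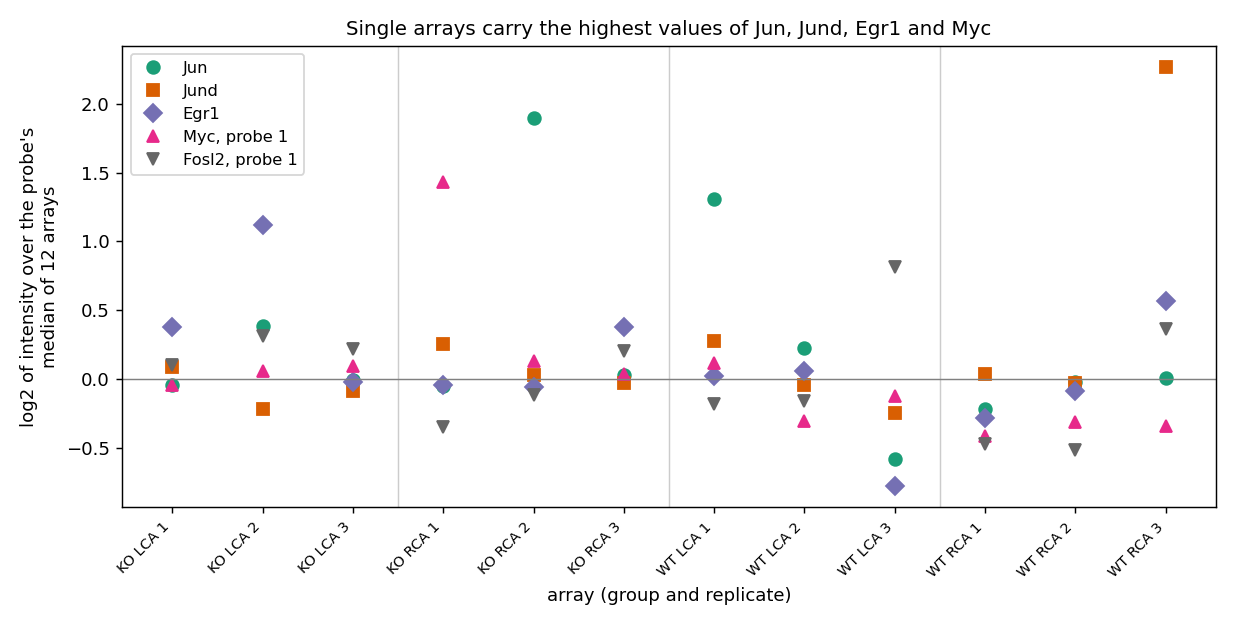
The log2 of intensity over the same probe's median of 12 arrays (vertical axis) for Jun, Jund, Egr1, the first Myc probe and the first Fosl2 probe, on each array (horizontal axis, KO LCA, KO RCA, WT LCA and WT RCA from left to right). Jund stands highest on the third WT RCA array, Jun on the second KO RCA array, Myc on the first KO RCA array, Egr1 on the second KO LCA array and Fosl2 on the third WT LCA array.

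The genes whose profiles lay closest to a member over the 12 arrays were found by Pearson correlation of log2 intensity among the tested probes, as a description. For Jund they were Gata3, Rtraf and Hint3, each with r = 0.99, and without the third WT RCA array r was 0.79, 0.75 and 0.73. Gata3 read 294 on that array and at most 102 on the others, and was above background on 2 arrays in all. For Myc they were Pmm2 (r = 0.95), Lonrf3 (0.94) and Tmem128 (0.93), with 0.64, 0.60 and 0.56 without the first KO RCA array. Tmem128 read 379 there, and 105 at most elsewhere. For both members the likeness thus rested largely on 1 array.

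The genes closest to Jun shared its 2 highest arrays, and r without both of these arrays was not computed. Their Spearman rho with Jun was 0.78 (Fnbp1), 0.73 (Epn2) and 0.54 (Cdc42se1). Fnbp1, which encodes a membrane-bending protein, had r = 0.96 and still 0.90 without the second KO RCA array. It read 651 on that array and 299 on the next highest, the first WT LCA array, the same order as Jun. Epn2 (r = 0.94) and Cdc42se1 (r = 0.94) had the same 2 arrays on top, at 272 and 261 and at 315 and 275. Fosl2 was closest to Acvr1b, an activin receptor (r = 0.91, and 0.86 without the third WT LCA array), which was above background on all 12 arrays. Its next 2 genes, Nkx2-3 and Olfr450, were above background on 1 array each. Egr1 was closest to Syne2 (r = 0.90, and 0.81 without the second KO LCA array), Nkx1-2 and Rasa3 (r = 0.89). These genes share arrays and groups with the members, and 12 points allow high correlations among 25796 probes.

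The other early genes are a class in which shear stress and growth signals act quickly, and 36 of the 38 listed were tested. None passed the adjusted threshold in any comparison. With KO RCA set against WT RCA, 26 of 36 were above 0 (median 0.09, against 0.002 over all genes), and 6 were higher and 1 lower at an unadjusted p under 0.05, where 2.4% of all tested probes were higher and 1.93% lower. Ccn2, a matricellular gene that responds to stretch and serum response factor, read 2083, 2083 and 1419 in KO LCA, 756, 797 and 943 in KO RCA, 658, 1109 and 602 in WT LCA, and 193, 328 and 160.1 in WT RCA. WT RCA was the lowest group, without overlap with any other. WT LCA minus WT RCA was 1.81 ± 0.30 (limma, adjusted p = 0.317), and KO RCA minus WT RCA was 1.94 ± 0.30 (limma, adjusted p = 0.253). KO LCA minus WT LCA was 1.27 ± 0.30 (limma, adjusted p = 0.301).

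Other early genes, named for the smallest p in a comparison, had larger differences than Fos or Fosb, though none passed. That choice and the floor under the Fos and Fosb probes favour such an outcome, so it does not compare the members with this class. Klf2, a factor that laminar flow keeps up in endothelium, had ligation differences of -0.83 ± 0.16 in KO and -0.87 ± 0.16 in WT (limma, adjusted p = 0.627 in KO and 0.318 in WT). Klf4, a related factor, read 128, 142 and 189 in KO LCA, 425, 425 and 221 in KO RCA, 154, 125 and 185 in WT LCA, and 345, 481 and 588 in WT RCA, with both ligated groups below both right-side groups, and its KO ligation difference was -1.18 ± 0.29 (limma, adjusted p = 0.627), against -0.62 and -0.07 on its other tested probes. Klf6 read 1317, 1684 and 1495 in KO LCA, against 682, 686 and 1054 in WT LCA, a difference of 0.92 ± 0.22 (limma, adjusted p = 0.301), against 0.39 on its other tested probe. Rhob, an early small GTPase, read 723, 706 and 1255 in KO RCA, against 374, 465 and 422 in WT RCA, a difference of 1.04 ± 0.26 (limma, adjusted p = 0.867). The groups did not overlap in these Klf6 and Rhob comparisons. Dusp1, the early phosphatase that switches MAP kinases off, read 542, 505 and 447 in KO LCA, 472, 464 and 379 in KO RCA, 224, 244 and 276 in WT LCA, and 1286, 513 and 359.6 in WT RCA. Its difference between the ligation differences was 1.51 ± 0.52 (limma, adjusted p = 0.919), and 0.98 without the first WT RCA array.

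**Figure D4:**
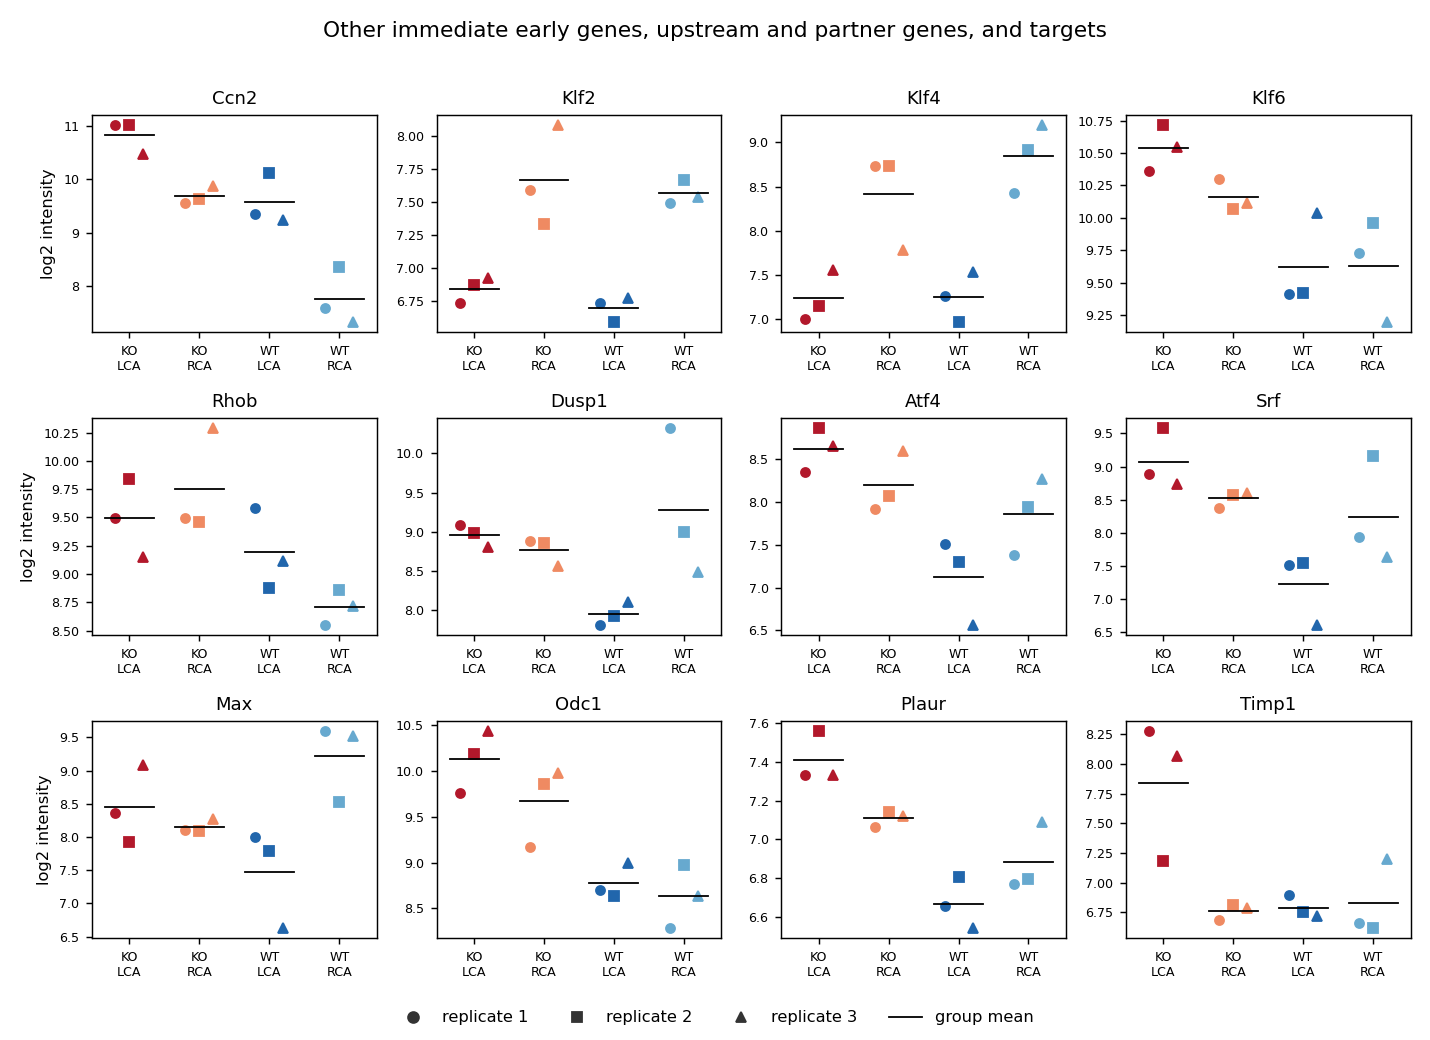
log2 intensity on the 12 arrays, 1 panel per gene with its own vertical scale, of early genes, AP-1 and MYC partners, upstream factors and target genes, with groups left to right as KO LCA, KO RCA, WT LCA and WT RCA and circles, squares and triangles for replicates 1, 2 and 3. The black line is the group mean. Ccn2 is lowest in WT RCA, and Plaur, Odc1, Atf4 and Klf6 have all 3 KO LCA arrays above all 3 WT LCA arrays.

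Of the other bZIP proteins that pair with AP-1 subunits, 10 of 12 were tested and 0 passed. Atf4, the factor of the amino acid and integrated stress response, read 326, 465 and 399.9 in KO LCA, against 182, 157 and 94.3 in WT LCA. The groups did not overlap, and the difference was 1.5 ± 0.30 (limma, adjusted p = 0.154), while the other Atf4 probe gave 0.46. The third WT LCA value was at background, and the difference was 1.22 without that array. The small Maf protein Mafg differed by 0.46 ± 0.15 in the same comparison (limma, adjusted p = 0.582), by 0.29 without the third WT LCA array and by 0.24 on its other probe. For KO LCA against WT LCA, 3 of 10 were higher and 0 lower at an unadjusted p under 0.05. Among all tested probes 4.49% were higher and 1.97% lower. These shares turned without the third WT LCA array, with 836 probes higher and 934 lower, against 1158 and 508 with it.

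Upstream of the members, 16 of 20 kinases and ternary complex factors were tested and 0 passed. Mapk14, the p38α kinase, had a WT ligation difference of -0.50 ± 0.10 (limma, adjusted p = 0.327). Its KO LCA minus WT LCA difference was 0.37 ± 0.10 (limma, adjusted p = 0.408). Without the third WT LCA array these were -0.41 and 0.29. Srf, serum response factor, had a KO LCA minus WT LCA difference of 1.85 ± 0.40 by its brighter probe (limma, adjusted p = 0.227) and of -0.05 by its other probe. The 2 Srf probes thus disagreed. The brighter one was at background on the third WT LCA array, and its difference was 1.54 without that array. In WT LCA against WT RCA, 3 of the 16 were lower and 0 higher at an unadjusted p under 0.05. Among all tested probes 4.38% were lower and 2.46% higher. These shares turned without the third WT LCA array, with 614 probes lower and 912 higher, against 1130 and 634 with it. The list was not counted without that array.

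Among the partners and antagonists of MYC, 9 of 10 were tested and 0 passed. Max, the obligate partner, read 330.2, 243 and 540.1 in KO LCA, 274, 271 and 308 in KO RCA, 255, 221 and 98.7 in WT LCA, and 777, 370.4 and 732 in WT RCA. WT RCA was the highest group and overlapped with KO LCA only. WT LCA minus WT RCA was -1.75 ± 0.41 (limma, adjusted p = 0.545), KO RCA minus WT RCA was -1.07 ± 0.41 (limma, adjusted p = 1) and the difference between the ligation differences was 2.05 ± 0.59 (limma, adjusted p = 0.919). The third WT LCA value of Max was at background. Without that array the WT ligation difference was -1.33 and the difference between the ligation differences 1.63. On the right side Max and the first Myc probe thus had differences of opposite sign.

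Of the MYC target genes, 14 of 15 were tested and 0 passed. In KO LCA against WT LCA, all 14 differences were above 0, with a median of 0.13 (all genes -0.01). At an unadjusted p under 0.05, 3 were higher and 0 lower, where 4.49% of all tested probes were higher and 1.97% lower. Without the third WT LCA array, 836 of all tested probes were higher and 934 lower, and the list was not counted without it. Odc1, the first enzyme of polyamine synthesis, read 865, 1166 and 1393 in KO LCA, against 415, 397 and 510.1 in WT LCA, a difference of 1.35 ± 0.26 (limma, adjusted p = 0.134). On the right side it differed by 1.04 ± 0.26 (limma, adjusted p = 0.85). Nme1, a nucleotide kinase, differed by 1.11 ± 0.28 between KO LCA and WT LCA (limma, adjusted p = 0.339). Of the 2 EGR1 corepressors Nab1 alone was tested, and its differences lay between -0.45 and 0.02.

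For the AP-1 target genes, 17 of 20 were tested and 0 passed, and the KO LCA against WT LCA comparison had the most unadjusted differences. There 14 of 17 were above 0 (median 0.17, all genes -0.01). At an unadjusted p under 0.05, 6 were higher and 0 lower, against 4.49% higher and 1.97% lower among all tested probes. That background depended on the third WT LCA array (836 probes higher and 934 lower without it), and this list was not counted without it. Plaur, the urokinase receptor, read 161, 189 and 161 in KO LCA, 134, 141 and 139 in KO RCA, 101, 112 and 93.1 in WT LCA, and 109, 111 and 136 in WT RCA. KO LCA and WT LCA did not overlap, and the third WT LCA value was at background. The difference was 0.74 ± 0.10 (limma, adjusted p = 0.0566), the smallest adjusted p among the genes named from these lists. Timp1, an inhibitor of matrix metalloproteinases, differed by 1.06 ± 0.25 in that comparison and by 1.08 ± 0.25 between KO LCA and KO RCA (limma, adjusted p = 0.304 and 0.627). In WT, Itga5, the fibronectin receptor subunit, had a ligation difference of -0.58 ± 0.18 (limma, adjusted p = 0.666), and -0.31 without the first WT RCA array. The summed markers of smooth muscle (2353 to 3343 in KO LCA, 931 to 1781 in WT LCA), fibroblasts (1658 to 2332 in KO LCA, 1065 to 1508 in WT LCA) and adipocytes (976 to 1280 in KO LCA, 672 to 837 in WT LCA) did not overlap in this comparison either. Of the adipocyte markers, only Fabp4 and Pck1 were above background on more than 2 arrays. The part of these cell types in the values of the AP-1 and MYC target genes was not tested.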

How the data were processed

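Total RNA was labelled with biotin and hybridised to 1-colour Illumina arrays, per the labels' protocols. The authors deposited 1 table of linear intensity values, 1 column per array, whose sorted values differ by at most 0.564% between arrays. The table was thus already normalized between arrays, by a method not given in the sources used here, and no further normalization was applied. Detection p-values were not used here. Probes were named through the platform annotation (34885 with 1 symbol, 18 with several, 10378 with none). The 25796 probes with 1 symbol and at least the array median on 3 or more arrays were tested on log2 intensity with limma 3.58.1 (lmFit, eBayes; R 4.3.3): 4 group means, 5 comparisons, Benjamini-Hochberg adjustment, threshold 0.05. The step was checked on simulated data. The number of arrays limits the precision. Named genes were all member probes, the 2 tested genes of smallest p per list and comparison (each as its brightest tested probe), and the 3 most alike genes per member above background on at least 6 arrays. Members and lists were chosen with earlier results of these data known. Of the genes this rule named, those with the clearest values are described. Alternatives were replicate blocks, array weights, the variance prior, filters, 1 probe per gene, 2 groups only, requantiling, median centring, a pseudocount of 16, subtraction of 64 and leaving out each array.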

Additional observations from a re-analysis of the deposited data

How the results depend on the processing

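Recomputing the member differences under each alternative gave 1439 values. None passed the threshold (lowest limma adjusted p 0.44), 1380 kept their direction and 59 reversed, 11 of them other than by leaving out an array. With array weights the reversed values were 0.00 for Atf3, 0.00 for Egr1 and -0.01 for Myc probe 2 (WT LCA minus WT RCA), 0.04 for Fosl2 probe 3 and 0.00 for Junb probe 1 (KO RCA minus WT RCA), 0.03 for Junb probe 1 and 0.05 for Myc probe 2 (KO LCA minus WT LCA), and 0.02, 0.07 and 0.03 for Fosl2 probe 1, Fosl2 probe 2 and Junb probe 1 (difference of the ligation differences). With subtraction of 64, Fosl2 probe 3 gave 0.01 (KO RCA minus WT RCA). The array weights were 0.249 for the third WT LCA and 0.597 for the third WT RCA array. Leaving out 1 array gave these ranges where a sign turned. For KO LCA minus KO RCA they were -0.22 to 0.02 (Fosb), -0.06 to 0.08 (Fosl2 probe 3), -0.86 to 0.12 (Jun) and -0.01 to 0.09 (Junb probe 1). For WT LCA minus WT RCA they were -0.07 to 0.08 (Fos), -0.02 to 0.08 (Fosb), -0.15 to 0.03 (Fosl2 probe 3), -0.10 to 0.85 (Jun), -0.05 to 0.24 (Junb probe 1), -0.03 to 0.12 (Atf3) and -0.04 to 0.20 (Myc probe 2). For KO RCA minus WT RCA they were -0.03 to 0.41 (Fosl2 probe 1), -0.10 to 0.09 (Fosl2 probe 3), -0.02 to 0.07 (Junb probe 1), -1.07 to 0.08 (Jund) and -0.15 to 0.27 (Egr1). For KO LCA minus WT LCA they were -0.12 to 0.38, -0.27 to 0.03 and 0.00 to 0.13 (Fosl2 probes 1, 2 and 3), -0.65 to 0.29 (Jun), -0.18 to 0.10 (Junb probe 1), -0.19 to 0.08 (Jund) and -0.18 to 0.07 (Myc probe 2). For the difference of the ligation differences they were -0.35 to 0.26, -0.17 to 0.13 and -0.02 to 0.17 (Fosl2 probes 1, 2 and 3), -0.19 to 0.10 (Junb probe 1), -0.15 to 1.00 (Jund) and -0.04 to 0.11 (Atf3). The cause of these turns was not tested. Of 1581 recomputed list gene differences, an alternative chosen after seeing the data, 1572 kept direction and call, and the 9 that reversed were all Nab1. Its ranges without 1 array were -0.87 to 0.18 (WT LCA minus WT RCA), -0.61 to 0.44 (KO RCA minus WT RCA), -0.46 to 0.19 (KO LCA minus WT LCA) and -0.60 to 0.45 (difference of the ligation differences, -0.08 with subtraction of 64).

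The number of probes past the adjusted threshold over the whole array was 11 for KO LCA minus WT LCA. It was 4 with array weights, 0 with trend and robust variances, 1 without the filter, 18 with the stricter filter, 1 with 1 probe per gene, 0 with only the 2 groups compared and 21 with median centring. For WT LCA minus WT RCA it was 0, and 1 with array weights. Leaving out 1 array gave 0 to 5 for KO LCA minus KO RCA, 0 to 10 for WT LCA minus WT RCA, 0 to 5 for KO RCA minus WT RCA, 0 to 25 for KO LCA minus WT LCA and 0 to 3 for the difference of the ligation differences. Replicate numbers were not treated as pairs, since the labels do not say that a number marks 1 mouse. The deviations of same-numbered LCA and RCA arrays correlated between -0.015 and 0.081. In WT these values (0.041, 0.056 and 0.081) lay above those of differently numbered arrays (-0.054 to 0.009). In KO they did not (-0.015, -0.004 and 0.04, against -0.056 to 0.06). Whether the numbers mark pairs is thus not settled. With the replicate number shared by both genotypes as a block, 0 probes passed for KO LCA minus WT LCA, and with it as a random block within genotype 10 passed. No member passed the threshold under any replicate block. Near the receptor level the intensities hold little of a difference, which limits what Fos, Fosb, Junb, Atf3 and Myc can show.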
